A study of Mus musculus with 7 samples.

Results

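The colony-stimulating factors (CSFs) are secreted proteins that keep blood cell precursors alive and steer them into macrophages and granulocytes. The 8 genes described here were chosen by symbol, as the CSF genes and the genes of their receptors. They are 3 ligand genes, Csf1, Csf2 and Csf3, and 5 receptor genes, Csf1r, Csf2ra, Csf2rb, Csf2rb2 and Csf3r. All 8 were found among the 48440 genes of an LPS experiment and among the 55352 genes of a viral transduction experiment. Both experiments used bone marrow-derived macrophages (BMDMs) of WT genotype, grown from C57BL/6 mice. The medium of every group contained 20 ng per mL M-CSF, the protein product of Csf1, so no group shows these cells without a CSF. In the LPS experiment, BMDMs were left without treatment or given 100 ng per mL lipopolysaccharide (LPS), a bacterial cell wall component, for 2 h or 4 h, and each time is 1 library. In the other experiment, an adeno-associated virus (AAV) with a GFP or a Shisa3 insert was put on BMDMs for 48 h, with 2 samples per group (AAV-GFP and AAV-Shisa3) and no LPS. Per the study's methods the vector drives its insert from the CAG promoter, which is active in most cell types. There was no uninfected group in that experiment, so an effect of the virus itself, shared by both groups, cannot be seen. No source used here says whether the 2 samples of a group came from separate mice or cultures, so its p-values measure only the spread between these samples.

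CSF1 (M-CSF) binds CSF1R, a receptor tyrosine kinase that macrophages need to survive and grow. CSF2 (GM-CSF) binds a ligand-specific alpha chain, CSF2RA, which pairs with the common beta chain CSF2RB and signals through JAK2 and STAT5. Mice carry a further beta chain, CSF2RB2, which serves the receptor for interleukin-3. CSF3 (G-CSF) binds CSF3R, which signals through STAT3 and is best known from neutrophils. Macrophages exposed to microbial products can themselves make CSFs, whose mRNAs are short-lived where their 3′ untranslated regions (UTRs) carry AU-rich elements.

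The sequence of the Csf2 mRNA shows such an element in its plainest form. Csf2 (ENSMUSG00000018916) lies on the minus strand of chromosome 11 at 54247271 to 54249667 of GRCm38. Its 3′ UTR of 317 bases, the GENCODE release M21 sequence, holds 9 ATTTA pentamers and 4 copies of the nonamer TTATTTATT. The window of 30 bases that starts at base 230 of this UTR is shown because it holds the overlapping pentamers, in capitals:
Csf2 3′ UTR: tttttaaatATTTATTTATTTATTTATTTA
At least 9 pentamers were found in 7.61% of 20744 genes with a 3′ UTR, and at least 1 nonamer in 7.12%. Csf3 (ENSMUSG00000038067; chromosome 11, plus strand, 98701263 to 98703629) had 6 pentamers in 669 bases, and Csf1 (ENSMUSG00000014599; chromosome 3, minus strand, 107741048 to 107760469) had 4 in 2111 bases. Csf1r had 3 pentamers in 1669 bases, while Csf2ra, Csf2rb, Csf2rb2 and Csf3r had 0. At least 1 pentamer was present in 62.7% of genes, so a single pentamer does not set a gene apart.

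The promoters were searched for motifs of transcription factors known to act on CSF genes and macrophage genes. They are RefSeq windows on GRCm38.p6, and windows of 250 bases before to 50 bases after the start were searched on both strands. The NF-κB motif searched was 3 G, any 2 bases, 3 T and 2 C in that order, and it was present in 1.63% of 32851 promoters. It was found 1 time among the 5 members searched, in Csf1, on the strand opposite to the gene, starting 154 bases before the transcription start. The 250 bases before the Csf1 start (chr3:107760470-107760719, minus strand) are shown with this match in capitals:
Csf1 promoter: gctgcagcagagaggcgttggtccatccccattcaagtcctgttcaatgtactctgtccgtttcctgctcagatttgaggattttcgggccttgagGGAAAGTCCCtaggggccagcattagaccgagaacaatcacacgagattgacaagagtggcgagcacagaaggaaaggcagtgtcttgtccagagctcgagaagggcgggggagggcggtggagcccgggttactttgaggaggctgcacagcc
PU.1 is a transcription factor of macrophages, and its motif was searched as GAGGAAG, which 13.6% of all promoters held. Csf2ra held 2 overlapping matches next to its start, Csf2rb2 held 2 and Csf3r held 1. The 250 bases before the starts of Csf2ra (chr19:61228419-61228668, minus strand) and Csf2rb2 (chr15:78305722-78305971, minus strand) are shown with the matches in capitals. The other match of Csf2rb2 lies 28 bases after the start, outside the bases shown:
Csf2ra promoter: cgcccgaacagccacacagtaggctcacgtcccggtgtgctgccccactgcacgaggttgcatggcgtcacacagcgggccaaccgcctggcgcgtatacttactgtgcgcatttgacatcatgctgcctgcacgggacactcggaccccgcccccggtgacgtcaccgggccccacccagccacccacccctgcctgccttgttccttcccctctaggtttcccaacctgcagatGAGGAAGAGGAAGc
Csf2rb2 promoter: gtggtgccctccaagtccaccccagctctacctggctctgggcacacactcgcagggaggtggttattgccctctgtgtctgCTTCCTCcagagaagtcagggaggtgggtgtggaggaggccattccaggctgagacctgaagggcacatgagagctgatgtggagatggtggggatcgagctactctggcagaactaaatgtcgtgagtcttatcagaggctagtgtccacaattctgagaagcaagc
The AP-1 motif TGANTCA (7.81% of promoters) and the letters TATAAA (13.6%) were found in none of the 5 members searched, which were these 4 and Csf2. A C/EBP motif (TTGC, any 2 bases, AA, in 10.8% of promoters) was found in the Csf2 window alone. That window (54249850 to 54250149) lies upstream of the GENCODE start of Csf2 at 54249667. The bases next to that start were therefore not searched for any motif. The matches are descriptions of the letters, and no binding was measured. Csf1r, Csf2rb and Csf3 were not searched.

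The receptor genes lie on separate chromosomes, except for the beta chains. On GRCm38, Csf2ra (ENSMUSG00000059326) lies on chromosome 19 at 61223957 to 61228429 and Csf3r (ENSMUSG00000028859) on chromosome 4 at 126024550 to 126044440. Csf2rb (ENSMUSG00000071713) lies on the plus strand of chromosome 15 at 78325752 to 78353847. Csf2rb2 (ENSMUSG00000071714) is its neighbour on the minus strand at 78282507 to 78305721. The coding parts of the 2 beta chain genes were 95.2% identical over 2631 aligned bases. Of all stretches of 150 bases in the Csf2rb transcript, 3.47% occurred unchanged in the Csf2rb2 transcript, and at 50 bases the share was 18.4%. How the authors' counting divided such reads is not given in the sources used here, so the split between Csf2rb and Csf2rb2 is uncertain. Csf2 overlaps the antisense gene Gm12223 over 96 bases and Csf1r overlaps Hmgxb3 on the opposite strand over 873 bases, and whether the counting used the strand is not given either.

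In the LPS table, each library's reads had been divided by a factor of its own. The reads could be recovered, and the libraries of 0 h, 2 h and 4 h held 15588502, 7263258 and 32659392 of them. Fold changes between times depend on this scaling. With the authors' factors the median log2 fold change over the 17854 genes kept was -0.05 at 2 h and -0.04 at 4 h. With the reads scaled to library totals it was -0.71 and -0.83 over the 18392 genes kept on that scale. Both values are therefore given for the members below. The AAV table holds values read as TPM, a transcript level corrected for length and scaled to the same total in each sample, and their depth is unknown. Shisa3 itself was at 7.88 and 10.9 TPM in AAV-GFP and at 12.3 and 17.8 TPM in AAV-Shisa3, so it was higher in both AAV-Shisa3 samples but did not pass the test over all genes (limma with Benjamini-Hochberg adjustment, adjusted p = 0.138). The BMDM label was checked against 12 macrophage markers, among them Adgre1, Cd68 and Lyz2. None was at 0, 1 (Cd14) was higher in AAV-Shisa3 and 0 were lower, and together they made up 39110 to 43188 TPM in the AAV samples and 31720, 22931 and 19053 RPM at 0 h, 2 h and 4 h of LPS, where RPM are reads scaled to the same total in each library.

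The first comparison asked how LPS affected macrophages over time. Csf1, Csf3 and Csf3r were far more abundant after LPS, and Csf1r was lower at 4 h than at 0 h. Csf2rb was moderately more abundant under every scaling. Csf2ra and Csf2rb2 were moderately more abundant or about level, depending on the scaling. At 2 h, 7 of the 8 members were at least 2-fold higher than at 0 h on log2(value + 1), where 20.5% of all genes were, and 0 were at least 2-fold lower, where 24.7% of all genes were. At 4 h, 5 members were at least 2-fold higher, against 22.2% of all genes, and 0 were lower, against 23.6%. Scaled to library totals, 4 members were higher at 2 h, against 13.9% of genes, and 0 lower, against 41.2%. At 4 h the totals gave 4 higher, against 13.4% of genes, and 1 lower, Csf1r, against 44.7%. With each library centred on its median, 7 members were higher and 0 lower at both times, where 26.9% of all genes were higher and 19.3% lower at 2 h, and 29.6% and 17% at 4 h. All of these counts of higher members include Csf2, which had at most 4 reads, and Csf3. Both had 0 reads at 0 h and passed the filter only through the LPS-treated libraries, and each count is 2 lower without them. With 1 library per time there is no replicate check and no test, and all intervals for this experiment are 95% intervals that cover counting error only.

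Csf1, which encodes the growth and survival factor of macrophages, had 164 reads at 0 h, 1088 at 2 h and 2254 at 4 h. These are 10.5 RPM (9.03 to 12.3), 150 (141 to 159) and 69.0 (66.2 to 71.9). The 2 h library thus had the highest level and the 0 h library the lowest. The fold over 0 h was 22.5 (19.1 to 26.7) at 2 h and 11.6 (9.90 to 13.7) at 4 h on the authors' scale, and 14.2 and 6.56 by library totals. From 2 h to 4 h the ratio was 0.516 (0.479 to 0.555) on the authors' scale and 0.461 by totals, so Csf1 was lower at 4 h than at 2 h under both.

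Csf3, which encodes the granulocyte factor G-CSF, had 0 reads at 0 h, 37 at 2 h and 383 at 4 h. The 0 reads allow up to 3 reads. Against that floor of 3 reads, the 2 h level of Csf3 was 41.9-fold higher on the authors' scale (26.5-fold by totals). The 4 h level was 108-fold higher (60.9-fold by totals). Both folds leave out the counting error of the 37 and 383 reads. Unlike Csf1, Csf3 was higher at 4 h than at 2 h, with a ratio of 2.58 (1.84 to 3.71) on the authors' scale and 2.30 (1.64 to 3.32) by totals. Csf2, which encodes GM-CSF, was close to undetected. It had 0, 2 and 4 reads at 0 h, 2 h and 4 h, which is at most 0.275 RPM, and no direction can be read from these counts.

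Csf1r, the receptor for CSF1, was the most abundant member at every time. It had 72358, 24614 and 58604 reads at 0 h, 2 h and 4 h, or 4642, 3389 and 1794 RPM. At 2 h its fold was 1.15 (1.14 to 1.17) on the authors' scale but 0.730 by totals, so its direction at 2 h depended on the scaling. At 4 h it was below 0 h under every scaling tried, at 0.684 (0.677 to 0.692) on the authors' scale and 0.387 (0.382 to 0.391) by totals. The summed level of the 12 macrophage markers was also lower at each later time in RPM, as given above, and its part in the Csf1r values was not tested. Most of this sum was Lyz2, with 376966, 102700 and 384910 reads at 0 h, 2 h and 4 h. Single markers differed in direction. In these libraries of unequal depth, Cd14 had 4416, 14671 and 32218 reads and Mrc1 had 17674, 5910 and 14556. Csf1r and its ligand differed in opposite directions at 4 h. Within a library, where no scaling enters, Csf1 made up 0.226% (0.194 to 0.263) of the reads of Csf1 and Csf1r together at 0 h, 4.23% (3.99 to 4.49) at 2 h and 3.70% (3.56 to 3.86) at 4 h.

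Csf3r, the receptor for CSF3, had 1985 reads at 0 h, 1986 at 2 h and 16680 at 4 h, or 127, 273 and 511 RPM. Each later library was above the one before. The fold over 0 h was 3.40 (3.19 to 3.62) at 2 h and 7.10 (6.78 to 7.44) at 4 h on the authors' scale, and 2.15 and 4.01 by totals. Of the 5 receptor genes, Csf3r had the largest fold over 0 h at both times, and its ligand gene Csf3 had more reads at the same times. Of the reads of Csf3r and Csf1r together, Csf3r made up 2.67% (2.56 to 2.79) at 0 h, 7.47% (7.16 to 7.79) at 2 h and 22.2% (21.9 to 22.5) at 4 h.

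The common beta chain gene Csf2rb had 4483, 2831 and 15428 reads at 0 h, 2 h and 4 h, or 288, 390 and 472 RPM. It was above 0 h at both times under every scaling, with folds of 2.14 (2.04 to 2.25) and 2.91 (2.81 to 3.01) on the authors' scale and 1.36 and 1.64 by totals. Its neighbour Csf2rb2 had 981, 604 and 2304 reads, with folds of 2.09 and 1.98 on the authors' scale and 1.32 and 1.12 by totals. Csf2ra, the ligand-specific alpha chain, had 2111, 1256 and 4265 reads. Its folds were 2.02 and 1.71 on the authors' scale, but 1.28 and 0.964 (0.915 to 1.02) by totals, so at 4 h its direction depended on the scaling. The 3 chains therefore did not keep one ratio. Csf2rb2 made up 17.95% (17.0 to 19.0), 17.6% (16.3 to 18.9) and 13.0% (12.5 to 13.5) of the beta chain reads at 0 h, 2 h and 4 h, and Csf2rb made up 68.0% (66.8 to 69.1), 69.3% (67.8 to 70.7) and 78.3% (77.8 to 78.9) of the reads of Csf2rb and Csf2ra.

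**Figure D1:**
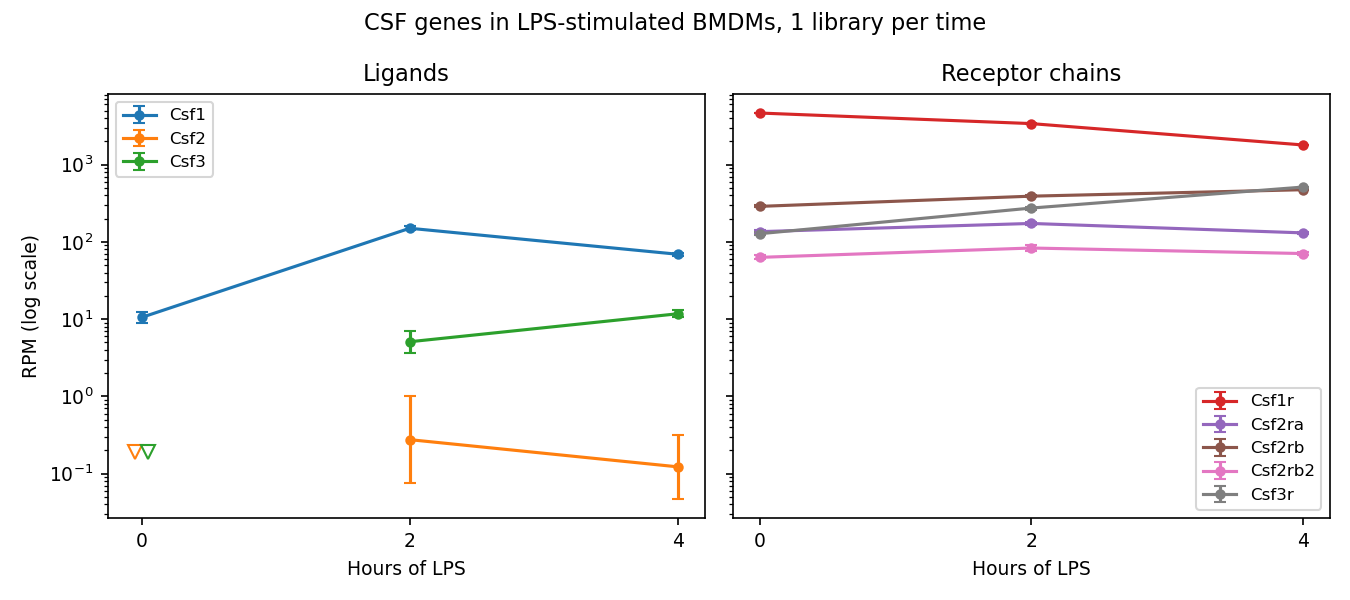
RPM (log axis) of the ligand genes (left) and receptor genes (right) against hours of LPS, with 1 library per time. Points are single libraries with 95% Wilson intervals for counting error, and open triangles give the upper limit of 0.192 RPM (3 reads) where 0 reads were found. Csf1 was highest at 2 h (150 RPM), Csf3 and Csf3r were highest at 4 h (11.7 and 511), and Csf1r was lower at each later time on this scale, although its 2 h value was above 0 h with the authors' factors.

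Between 2 h and 4 h, Csf3 and Csf3r were at least 2-fold higher on the authors' scale (17.9% of all genes were) and no member was at least 2-fold lower (15.2% were). By totals, Csf3 alone was higher (15.5% of genes) and Csf1 was lower (18% of genes). The plot of the 4 scalings sets these dependences side by side for the comparison of 4 h with 0 h. The order of the 6 members plotted, with Csf1 first, then Csf3r, Csf2rb, Csf2rb2, Csf2ra and last Csf1r, is the same under each scaling because a scaling moves all genes together.

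**Figure D2:**
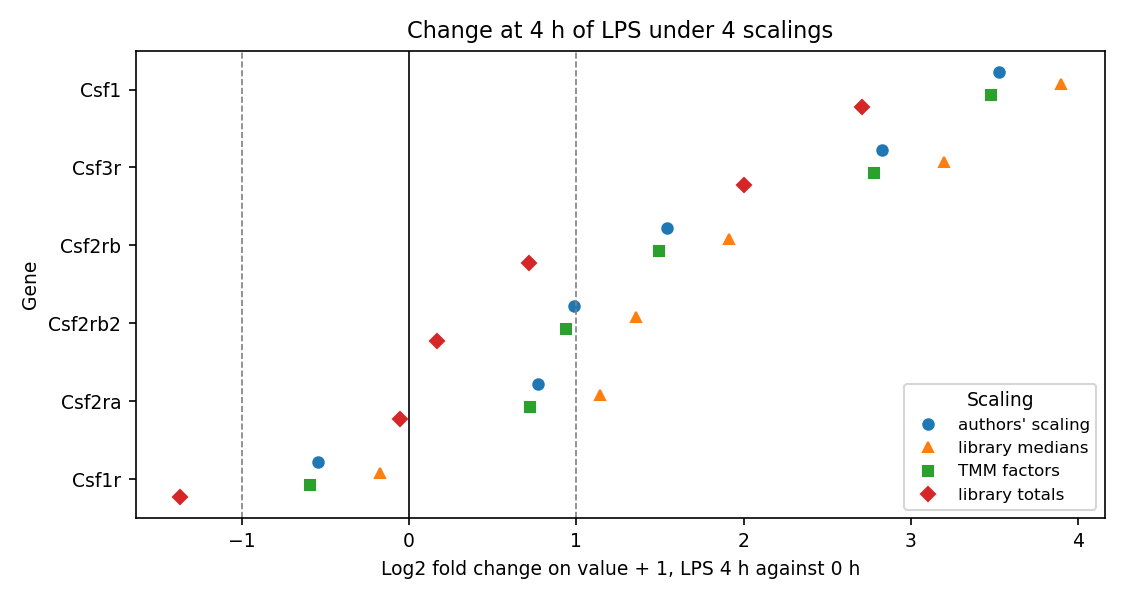
Log2 fold change of 6 members at 4 h of LPS against 0 h (x axis, on value + 1) under 4 scalings, with 1 library per time. Dashed lines mark 2-fold, and Csf2 and Csf3 are left out because they had 0 reads at 0 h. Csf1 (2.71 to 3.90) and Csf3r (2.00 to 3.20) lay beyond 2-fold under all 4 scalings and Csf1r lay below 0 under all 4 (-1.37 to -0.18), while Csf2ra turned from 0.77 with the authors' factors to -0.05 by library totals.

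To compare levels between genes, reads were divided by the length of each gene's merged exons and expressed as estimated TPM. At 0 h Csf1r was at 1788 estimated TPM, followed by Csf2ra at 105, Csf2rb at 87.9, Csf3r at 78.5, Csf2rb2 at 29.5 and Csf1 at 4.43. At 4 h Csf1r was at 725 and Csf3r, at 330, had moved to the second place, ahead of Csf2rb at 151 and Csf2ra at 106. Of the 5 receptor transcripts per length, Csf1r made up 85.6%, 73.9% and 53.8% at 0 h, 2 h and 4 h, and Csf3r made up 3.76%, 9.54% and 24.5%. These shares rest on an exon length per gene that the isoforms in use may not match.

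**Figure D3:**
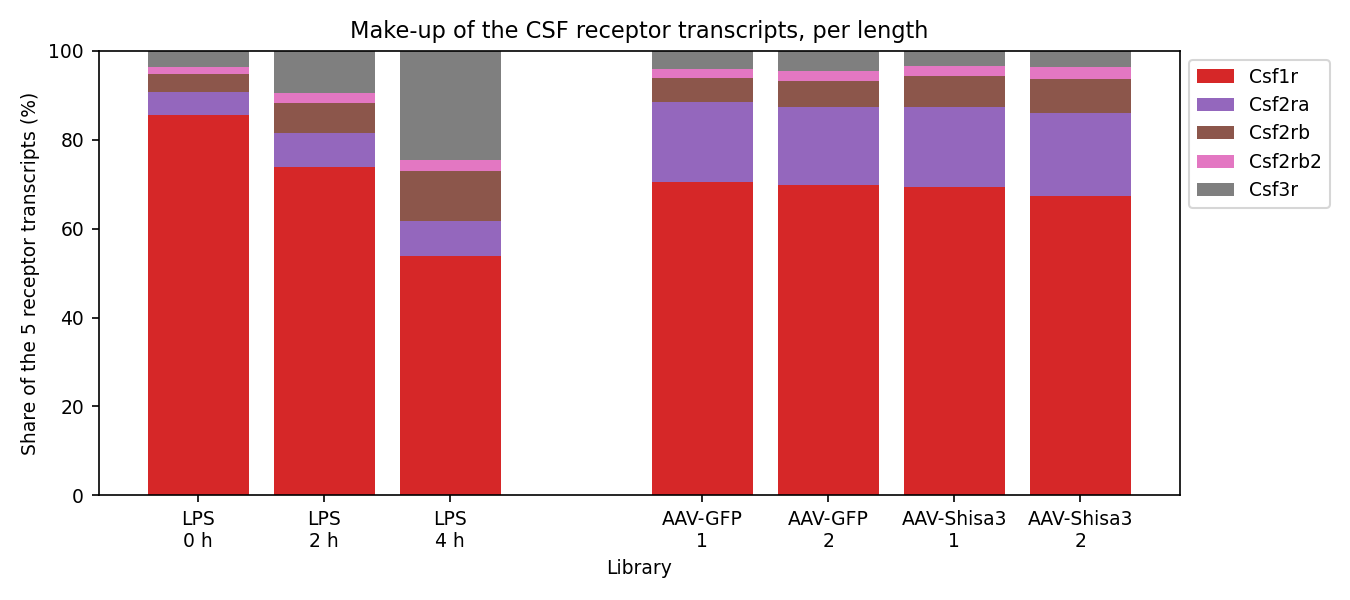
Share (%, y axis) of each of the 5 CSF receptor genes in their summed level per transcript length, for each LPS library (estimated TPM) and each AAV sample (TPM). Each bar is 1 library. The Csf1r share is 85.6% at 0 h and 53.8% at 4 h of LPS, and lies between 67.4% and 70.4% in the 4 AAV samples, while Csf3r makes up 24.5% at 4 h of LPS.

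The second comparison asked what Shisa3, delivered by AAV, does to macrophages without LPS. Csf2rb, the common beta chain gene, was the 1 member that passed the test and was higher in AAV-Shisa3, while 2.23% of all 11218 genes tested were called higher. No member was called lower, against 4.1% of all genes. At an unadjusted p under 0.05 by limma, 4 members were higher, against 8.21% of all genes, and 0 lower, against 19.8%. With each sample centred on its median, 3 members were called higher, against 3.65% of all genes, and 0 lower, against 2.05%. The added members were Csf2ra and Csf1r (adjusted p = 0.0338 and 0.0457 by limma). Of the 8 members, 7 passed the filter of a mean of at least 1 TPM and were tested, and Csf2 did not. Both AAV-Shisa3 samples lay above both AAV-GFP samples in 4 of the 7 (18.2% of all genes did) and below them in 0 (41.2% of all genes did). The median log2 fold change of the 7 was 0.38, beside -0.10 over all genes tested. The test was limma on log2(TPM + 1) across all genes, with Benjamini-Hochberg adjustment, and this scale understates the changes of low genes. In these bulk samples, fewer cells of a type and less RNA per cell cannot be told apart.

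Csf2rb was at 118 and 134 TPM in AAV-GFP and at 186 and 229 TPM in AAV-Shisa3. The groups did not overlap, and the means were 126 ± 11.7 and 207 ± 30.02 TPM (SD, n = 2 each), a ratio of 1.65. The log2 fold change was 0.71 (SE 0.12, 95% interval 0.41 to 1.01), with an adjusted p of 0.0343 by limma with Benjamini-Hochberg adjustment. The call was lost without the variance trend (adjusted p = 0.0811 by limma), without the filter on low values (0.162) and whenever any 1 of the 4 samples was left out (0.106 to 0.187), while the log2 fold change stayed between 0.56 and 0.86 in those leave-one-out fits. An exact permutation test of 2 against 2 samples cannot give a two-sided p below 0.333.

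Csf2rb2, the interleukin-3 beta chain gene, was at 39.4 and 51.5 TPM in AAV-GFP and at 61.5 and 80.8 TPM in AAV-Shisa3. Its groups did not overlap either, but it did not pass the test, with a log2 fold change of 0.64 (95% interval 0.20 to 1.07, adjusted p = 0.0904 by limma). It made up 25.1% and 27.7% of the summed beta chain TPM in AAV-GFP and 24.8% and 26.1% in AAV-Shisa3 (exact permutation test, two-sided p = 0.667). The split between both beta chains, whose reads cannot be fully separated, therefore overlapped between the groups. Csf2ra, the alpha chain that pairs with Csf2rb, was at 384 and 411 TPM in AAV-GFP and at 494 and 542 TPM in AAV-Shisa3. The groups were apart, and Csf2ra missed the threshold narrowly with a log2 fold change of 0.38 (0.18 to 0.58, adjusted p = 0.0526 by limma).

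Csf1r was at 1499 and 1624 TPM in AAV-GFP and at 1891 and 1975 TPM in AAV-Shisa3. Both AAV-Shisa3 samples were higher, but the log2 fold change of 0.31 (0.12 to 0.50) did not pass (adjusted p = 0.0712 by limma). Csf3r was at 89.0 and 107 TPM in AAV-GFP and at 96.4 and 104 TPM in AAV-Shisa3. Here the AAV-Shisa3 samples lay inside the range of AAV-GFP, with a log2 fold change of 0.04 and an interval from -0.23 to 0.30 (adjusted p = 0.844 by limma). The Csf3r value turned to -0.091 without AAV-GFP sample 1 and to -0.015 without AAV-Shisa3 sample 2. The Csf3r share of the summed Csf3r and Csf1r TPM was 5.60% and 6.16% in AAV-GFP and 4.85% and 4.99% in AAV-Shisa3, groups that did not overlap (exact permutation test, two-sided p = 0.333, the smallest the design allows). This share was chosen after its values were seen.

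Among the ligands, Csf3 was at 23.1 and 38.7 TPM in AAV-GFP and at 35.8 and 49.4 TPM in AAV-Shisa3. The groups overlapped, and the log2 fold change was 0.48 with a wide interval of -0.17 to 1.13 (adjusted p = 0.291 by limma). It was 0.12 without AAV-GFP sample 1, 0.25 without AAV-Shisa3 sample 2 and 0.84 without AAV-GFP sample 2. Csf1 was at 3.42 and 5.35 TPM in AAV-GFP and at 4.78 and 5.22 TPM in AAV-Shisa3, which also overlapped (log2 fold change 0.18, interval -0.33 to 0.69, adjusted p = 0.608 by limma). The Csf1 value turned to -0.083 without AAV-GFP sample 1 and was 0.44 without AAV-GFP sample 2. Csf2 was listed at 0 in both AAV-GFP samples and at 0.12 and 0.13 TPM in AAV-Shisa3, too low to test. No ligand gene passed the test.

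**Figure D4:**
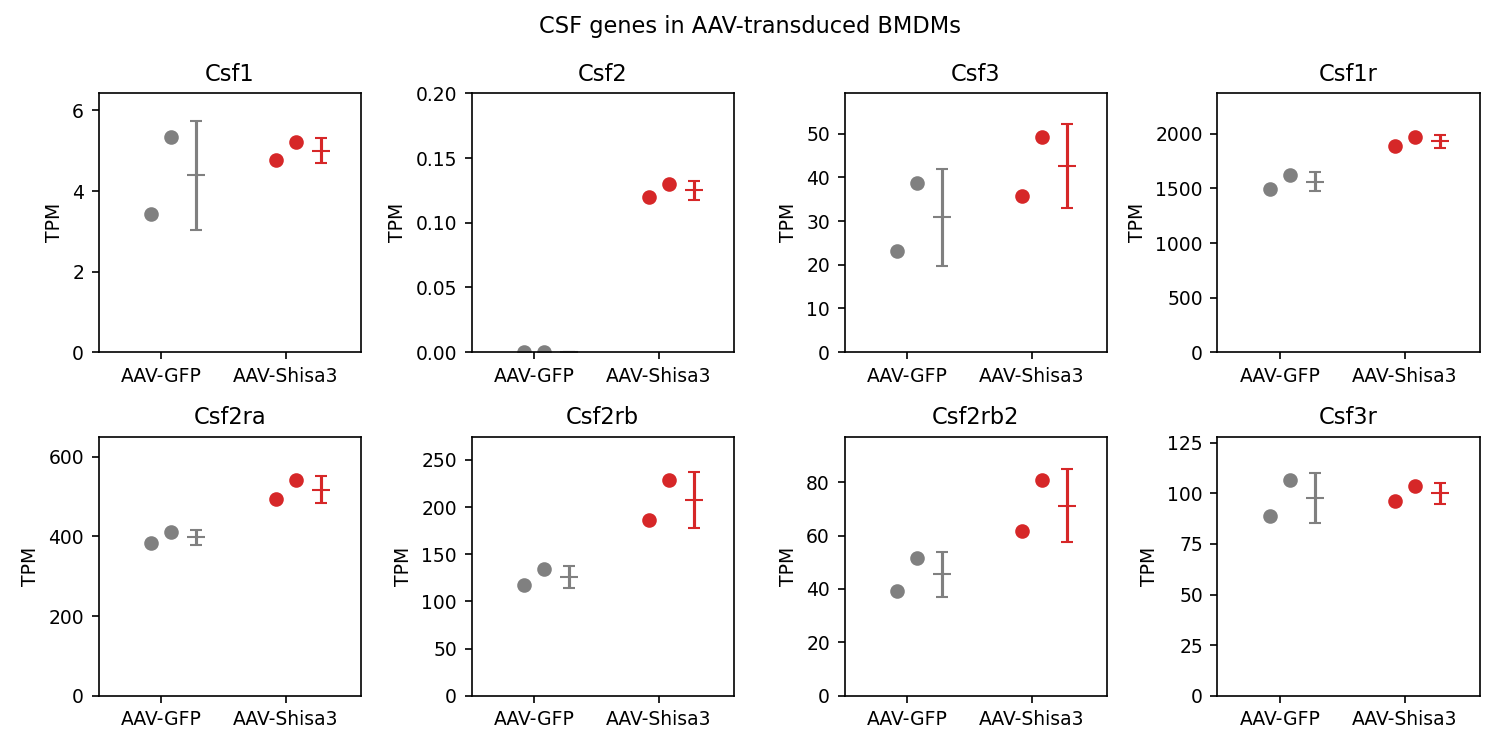
TPM (y axes from 0, scaled per gene) of the 8 members in each AAV-GFP and AAV-Shisa3 sample. Points are samples, and the dash with bars beside them is the mean ± SD (n = 2 per group). The 2 groups are apart for Csf1r, Csf2ra, Csf2rb and Csf2rb2 and overlap for Csf1, Csf3 and Csf3r, and Csf2 stays at or below 0.13 TPM.

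Per TPM the order of the members in AAV-GFP was Csf1r, Csf2ra, Csf2rb, Csf3r, Csf2rb2, Csf3, Csf1 and Csf2, and in each group no neighbours in this order overlapped. Over all 4 samples, Csf2rb2 (39.4 to 80.8 TPM) and Csf3 (23.1 to 49.4 TPM) did overlap. Csf3 had 0 reads in the untreated BMDMs of the LPS experiment and was at 23.1 TPM or more in AAV-GFP, and Csf2ra was at 105 estimated TPM there and at 384 TPM or more in AAV-GFP. The experiments were normalized separately, and only the AAV experiment used a virus. The estimated TPM rest on merged exon lengths, and the lengths behind the AAV values are not given. These levels are therefore set side by side without a test.

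**Figure D5:**
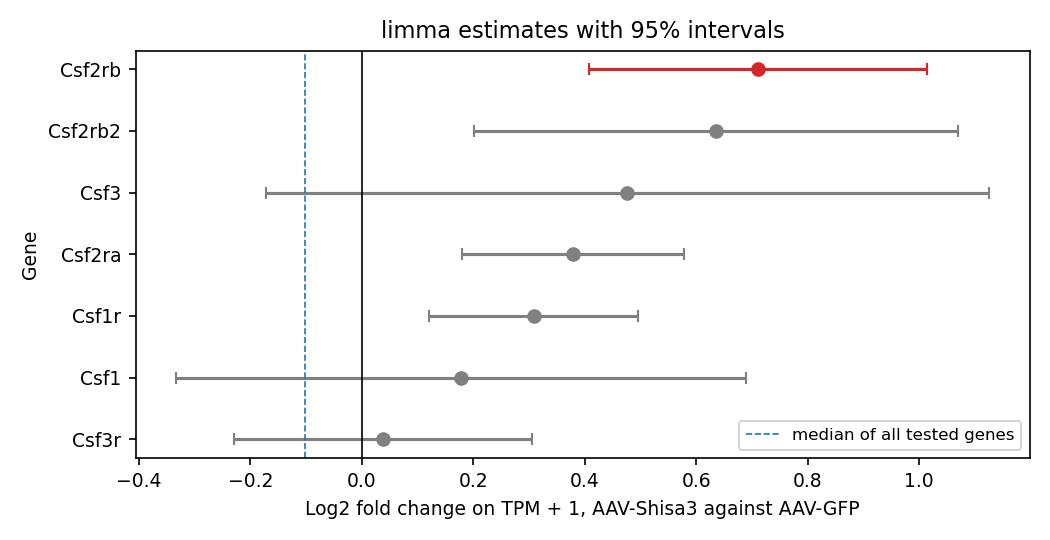
Log2 fold change on TPM + 1 of AAV-Shisa3 against AAV-GFP (x axis) for the 7 members tested, with 95% intervals from limma (n = 2 per group). Csf2rb, in red, passed the test, the others, in grey, did not, and the dashed line is the median of all tested genes (-0.10). Estimates run from 0.04 for Csf3r to 0.71 for Csf2rb, and the intervals of Csf3, Csf1 and Csf3r include 0.

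Other genes of the CSF pathways were taken from lists. Of 9 further ligands and receptors of these families, such as Il34 and Kit, 2 could be tested in the AAV experiment, 1 was higher and 0 were lower, beside 2.23% and 4.1% of all genes. The AAV calls named in these lists have similar limits to the Csf2rb call, given here over all genes and not for each gene. By limma, 0 genes were called in either direction without the filter (1118 and 2411 were at an unadjusted p under 0.05) or without either AAV-GFP sample (616 to 765 and 1263 to 1712), and 1 was higher and 4 were lower without the variance trend. Il3ra, the alpha chain of the interleukin-3 receptor that pairs with the beta chains above, was at 53.1 and 59.1 TPM in AAV-GFP and at 77.5 and 88.8 TPM in AAV-Shisa3. It was higher by 0.56 on the log2 scale (SE 0.10, adjusted p = 0.0397 by limma). In the LPS experiment 6 of the 9 were kept, and at 4 h 2 were at least 2-fold higher and 1 was lower (22.2% and 23.6% of all genes), and 1 and 1 by totals (13.4% and 44.7%). In the LPS table Il3ra had values of 362, 625 and 652 at 0 h, 2 h and 4 h on the authors' scale. By library totals it was at 36.1, 39.4 and 36.7 RPM, so its level over 0 h depended on the scaling.

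Of 21 genes of CSF1R signalling and trafficking, 2 passed and were higher in AAV-Shisa3 and 0 were lower, with a list median of -0.14, beside 2.23% higher, 4.1% lower and a median of -0.10 over all genes. They were Rhbdf2, which controls the protease that sheds CSF1R from the cell surface, and Fgr, a kinase of the Src family (log2 fold changes 0.51 and 0.66, adjusted p = 0.0295 and 0.0377 by limma). At 4 h of LPS, 10 of the 21 were at least 2-fold higher and 1 was lower, beside 22.2% and 23.6% of all genes. By library totals 7 were higher and 6 lower, beside 13.4% and 44.7% of all genes, and these shares of all genes apply to each list below. Reads of single genes named from here on are not scaled. The 4 h library held 32659392 reads in all and the 0 h library 15588502. Src, which encodes the kinase that gives the Src family its name, had 118 reads at 0 h and 6185 at 4 h. Inpp5d, a lipid phosphatase that counters PI3 kinase, had 7567 and 615 reads, the 1 gene of the list that was lower on the authors' scale.

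JAK kinases, STAT factors and their inhibitors relay the signals of the CSF2 and CSF3 receptors. Of 11 genes on this list, 9 were tested in the AAV experiment, 2 were higher and 0 lower, with a median of -0.01. The 2 were Socs1 and Socs3, feedback inhibitors that cytokine signals switch on. Socs3 was at 144 and 181 TPM in AAV-GFP and at 273 and 298 TPM in AAV-Shisa3 (log2 fold change 0.82, adjusted p = 0.0272 by limma), and Socs1 was at 8.18 and 9.56 TPM against 16.2 and 16.7 TPM (0.83, adjusted p = 0.0263 by limma). At 4 h of LPS, 9 of the 11 were at least 2-fold higher and 0 lower, and 7 and 0 by totals. Socs3 had 373 reads at 0 h and 72708 at 4 h.

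Of 13 genes known as targets of STAT5 and STAT3, 11 were tested, 3 were higher in AAV-Shisa3 and 0 lower, with a median of 0.26. They were Socs1 and Socs3, which the former list also holds, and the cytokine gene Osm, at 4.89 and 4.35 TPM in AAV-GFP and 8.16 and 7.73 TPM in AAV-Shisa3 (log2 fold change 0.67, adjusted p = 0.0465 by limma). At 4 h of LPS, 10 of the 13 were at least 2-fold higher and 0 lower, and 8 and 0 by totals. The cell cycle gene Ccnd2 went from 38 to 4369 reads.

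Of 10 transcription factors that act on Csf1r, 0 were higher and 1 was lower in AAV-Shisa3, namely Fli1 (26.7 and 30.1 TPM against 17.1 and 18.1 TPM, log2 fold change -0.66, adjusted p = 0.0307 by limma). At 4 h of LPS, 3 of the 10 were higher and 2 lower, and 2 and 4 by totals, close to the shares of all genes (22.2% and 23.6%, and 13.4% and 44.7% by totals). Spi1, which encodes PU.1, had 3498 reads at 0 h and 19456 at 4 h, and Ets2 had 192 and 11554. Cebpa, a myeloid factor, had 1540 and 113, and Fli1 had 2667 and 592. Csf1r itself was lower at 4 h, as given above.

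Of 13 transcription factors that act on Csf2 and Csf3, 5 were higher in AAV-Shisa3 and 1 was lower, with a median of 0.38. The 3 of lowest adjusted p were the AP-1 genes Fos, Junb and Fosl1, with log2 fold changes of 0.67, 0.55 and 1.19 (adjusted p = 0.0206, 0.0236 and 0.0292 by limma). Nfatc1 was lower (-0.85, adjusted p = 0.0301 by limma). At 4 h of LPS, 10 of the 13 were higher and 1 lower, and 9 and 1 by totals. Cebpd, a C/EBP factor, had 908 reads at 0 h and 11650 at 4 h, Junb had 1671 and 20748, and Nfatc1 had 1138 and 220.

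Of 10 regulators of AU-rich mRNA decay, 1 was higher in AAV-Shisa3 and 0 were lower, with a median of -0.06. Zfp36 encodes tristetraprolin, which binds AU-rich elements such as the Csf2 sequence above and promotes decay of the mRNA. It was at 156 and 157 TPM in AAV-GFP and at 262 and 242 TPM in AAV-Shisa3 (log2 fold change 0.68, adjusted p = 0.0178 by limma). At 4 h of LPS, 3 of the 10 were higher and 3 lower, and 2 and 4 by totals, near the shares of all genes as well. Zfp36 had 1108 reads at 0 h and 23869 at 4 h, and Zc3h12a, an endonuclease, had 429 and 4349. The relatives of Zfp36 differed the other way, with Zfp36l2 at 5753 and 197 reads and Zfp36l1 at 1444 and 229.

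By one measure of likeness, the distance over 3 log2 differences (2 h and 4 h of LPS against 0 h, and AAV-Shisa3 against AAV-GFP), 10104 genes were compared with each of the 6 members that had over 3 reads in every LPS library. The nearest to Csf1 were Hspa1b, Nfkbie and Nod2, at distances of 0.15, 0.16 and 0.23. The nearest to Csf2rb were Aim2 and Ccr1, at 0.16 and 0.21. H2-Aa lay nearest to Csf2rb2, at 0.02, Zfand5 nearest to Csf3r, at 0.09, and Ppp1r18os nearest to Csf2ra, at 0.07. The distance rests on 7 libraries and carries no test.

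Other cells can carry these genes, so their markers are given beside the results. Of 14 neutrophil markers, 12 were tested, 2 were higher in AAV-Shisa3 (Ngp and Camp) and 0 were lower. They summed to 611 and 587 TPM in AAV-GFP and to 1122 and 709 TPM in AAV-Shisa3, and Ly6g was at or below 0.29 TPM in every sample. All of the 14 but Ly6g, Mmp8 and Cxcr2 were higher in both AAV-Shisa3 samples than in both AAV-GFP samples. Of all genes tested, 18.2% were. In LPS the neutrophil sum was 701, 733 and 514 RPM at 0 h, 2 h and 4 h. The part of neutrophils in the Csf2rb and Csf3r values was not tested.

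Of 8 dendritic cell markers, 2 were tested and 1 was lower in AAV-Shisa3 (Batf3). The list summed to 32.0 and 40.0 TPM in AAV-GFP and to 16.9 and 18.04 TPM in AAV-Shisa3, with Cd209a at 0 in every AAV sample. Most of this sum was Batf3, at 28.4 and 35.4 TPM in AAV-GFP and 14.2 and 14.9 TPM in AAV-Shisa3. T cells are a known source of Csf2, and 4 of 8 T cell markers, Cd3e, Cd3d, Cd3g and Themis, were at 0 in all AAV samples, where the list summed to at most 1.29 TPM. In the LPS libraries Cd3e, Cd3g, Cd8b1 and Themis had 0 reads, and the list sum of 251, 37.9 and 21.2 RPM was mostly Cd28 at 0 h and 2 h (3904 and 193 reads, and 154 at 4 h) and mostly Lck at 4 h (1, 82 and 524 reads). In the AAV samples the 5 B cell markers summed to 8.07 to 13.8 TPM, the 8 fibroblast markers to 11.2 to 18.1 TPM, the 5 endothelial markers to 9.71 to 12.1 TPM and the 6 mast cell markers to at most 0.34 TPM, and of these 3 were at 0 throughout (Mcpt4, Cma1 and Fcer1a). No marker of these lists or of T cells was called in either direction, and none of the T cell and mast cell markers was abundant enough to be tested. In the LPS libraries the endothelial sum was 10.8, 20.9 and 93.8 RPM, with Kdr at 141, 126 and 2886 reads. The B cell, fibroblast and mast cell sums there reached at most 7.12, 62.2 and 3.17 RPM.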

How the data were processed

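RNA was sequenced from 7 BMDM samples, 3 of the LPS experiment and 4 of the AAV experiment. The LPS table deposited by the authors gives a signal for each gene, which is reads divided by a factor of the library. This was inferred from the values, of which 100% were whole multiples of 1 step within 0.01. PCR copies of a molecule are not independent reads, so intervals and floors cover counting error only. The AAV table deposited by the authors has values that were read as TPM from their sums. The submitters' processing notes name mm9; aligner, counter and annotation are not given in the sources used here. The gene identifiers were matched to GENCODE M21 on GRCm38 (99.2% of the LPS table), which gave coordinates, lengths and UTRs.

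AAV values were tested on log2(TPM + 1) with limma and its variance trend, for the 11218 genes whose mean reached 1 TPM. A call was a Benjamini-Hochberg adjusted p under 0.05. The script was tested on simulated data with planted changes larger than those of the members, so that check does not cover changes of their size. LPS genes whose mean value reached 1 were compared on log2(value + 1), with a call at 2-fold. Shares have 95% Wilson intervals, and folds have exact 95% intervals for the ratio of 2 counts. The fold of a gene with 0 reads is set against a floor of 3 reads, which did not enter the calls. Such a fold leaves out the counting error of the later reads. The members and gene lists were chosen with earlier results of these data known, and the shares of Csf3r with Csf1r and of Csf2rb with Csf2ra after the values were seen. All members were named; from each list, up to 3 called genes per direction (AAV) and the 2 largest rises and falls of at least 2-fold at 4 h of LPS among genes with over 3 reads at 0 h; and the genes nearest to each member. Some genes that this rule names are not reported here. Marker genes named singly were chosen after their values were seen. Alternatives were other scalings (library medians, totals, TMM), pseudocounts, filters, limma without trend, the replicate number as a block and leaving out each sample. R 4.3.3, limma 3.58.1, edgeR 4.0.16 and Python 3.11.15 were used.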

Additional observations from a re-analysis of the deposited data

How the results depend on the processing

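For AAV-Shisa3 against AAV-GFP, 1 member was called higher (250 genes higher and 460 lower among all). The members called higher numbered 0 without the variance trend (1 and 4 genes in all, and 811 and 2148 at an unadjusted p under 0.05), 0 without a filter (0 and 0 in all, 1118 and 2411 unadjusted, by limma), 2 with at least 1 TPM in every sample (325 and 617 in all), and 3 with each sample centred on its median, where Csf2ra and Csf1r joined Csf2rb and the split of all genes turned to 410 higher and 230 lower. Leaving out any 1 sample gave 0 members higher, and over all genes 0 to 27 higher and 0 to 7 lower (616 to 798 and 1263 to 1712 at an unadjusted p under 0.05, by limma); the remaining sample of the smaller group is assumed to vary like the other group. Without AAV-GFP replicate 1 the log2 fold changes of Csf1 and Csf3r turned to -0.083 and -0.091, and without AAV-Shisa3 replicate 2 that of Csf3r turned to -0.015 (leave-one-out ranges -0.083 to 0.44 and -0.091 to 0.17). A pseudocount of 0.1 gave 1 member higher (254 and 472 in all), and no alternative called a member lower.

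With the replicate number as a block, 5 members were called higher (Csf2rb, Csf2rb2, Csf2ra, Csf1r and Csf3), with 424 genes higher and 851 lower in all. Nothing in the labels says that equal numbers mark a shared batch; the deviations of same-numbered samples correlated at 0.19 across genes, and all 7 tested members were higher in replicate 2 of both groups, as were 59.0% (AAV-GFP) and 50.8% (AAV-Shisa3) of all tested genes. No paired analysis was possible for LPS because each time has 1 library.

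For LPS, scaling to library totals gave 4 members higher at 2 h and 1 lower at 4 h; all genes lower were 7576 at 2 h and 8223 at 4 h in place of 4406 and 4207, and genes higher at 4 h were 2468 in place of 3958. Centring on library medians turned the split of all genes to 4808 higher and 3454 lower at 2 h and 5285 and 3036 at 4 h, from 3668 and 4406, and 3958 and 4207. This centring, TMM factors, pseudocounts of 0.1 and 5 and other filters gave 5 to 7 members higher at 2 h and 4 to 7 at 4 h; those other than centring gave 2673 to 4043 genes higher and 3123 to 5096 lower at 2 h, and 3018 to 4651 and 3198 to 4634 at 4 h. The AAV depth is unknown, and at the LPS depth Csf2 was too low to give a direction.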
